A study of Homo sapiens with 6 samples.

Results

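The genes described here encode cytoplasmic initiation and elongation factors of protein synthesis, with some proteins that act on these factors or share their names. They were taken by symbol: every protein-coding gene of the deposited table whose name starts with EIF or EEF, leaving out the EIF2AK kinases, which gave 63 of 60504 genes. RNA came from HCC827, an established human lung adenocarcinoma line that carries a mutant EGFR. One group of 3 libraries (3D) came from cells seeded at 50000 and kept for 12 to 16 days inside droplets of Matrigel, a gel of basement membrane proteins used here in its growth factor reduced form. The other group of 3 libraries (2D) came from cells seeded at 1000000 and kept for 4 to 6 days as a layer in T-75 flasks. No drug or genetic change is named for either group in the labels, and both groups are the same single line. Geometry, culture time, seeding and contact with the gel differed together, so their effects cannot be told apart.

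In initiation, eIF4E binds the cap of the mRNA, eIF4G bridges it to the small ribosomal subunit, and the eIF4A helicase opens the leader. The small subunit carries eIF1, eIF1A, eIF3, eIF5 and eIF2, which brings the initiator tRNA, and eIF5B then joins the large subunit. In elongation, eEF1A delivers each aminoacyl-tRNA, the eEF1B subunits recharge eEF1A with GTP, and eEF2 moves the ribosome along by a codon. Many mRNAs of this machinery begin at their cap with a C and a run of pyrimidines, a 5′ terminal oligopyrimidine tract, through which mTORC1 and LARP1 control their translation.

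The start-site sequences of selected members show which of them begin in this way. Promoter entries from RefSeq on GRCh38.p14 were matched by symbol for 51 of the 63 genes. Shown are the members with an unadjusted p under 0.05 in the comparison of cultures that have an entry, with the abundant elongation factors EEF1A1 and EEF2 and with EIF2S3 and EIF4A2, which have such a start and fold changes above 0. Each sequence runs from 15 bases before the annotated start to 15 bases from it, on the gene's own strand, and the capitals mark the first 5 transcribed bases. They are sorted by their own letters, and the first group starts with a C followed by 4 pyrimidines (each a C or a T).
EIF3K, chr19:38619173-38619202, plus strand: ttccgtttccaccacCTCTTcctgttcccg
EEF1B2, chr2:206159880-206159909, plus strand: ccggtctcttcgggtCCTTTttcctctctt
EIF2D, chr1:206612451-206612480, minus strand: ggtttccagccgggcCCTTTtcgcggccgg
EIF3F, chr11:7987322-7987351, plus strand: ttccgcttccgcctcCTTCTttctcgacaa
EEF1A1, chr6:73521018-73521047, minus strand: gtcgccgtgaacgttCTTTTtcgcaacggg
EEF2, chr19:3985449-3985478, minus strand: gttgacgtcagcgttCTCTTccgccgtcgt
EIF2S3, chrX:24054941-24054970, plus strand: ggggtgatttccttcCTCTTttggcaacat
EIF4A2, chr3:186783562-186783591, plus strand: gttgggcgccgctgtCTTTTcagtcgggcg
The second group, which includes the other RefSeq entry of EEF1B2, does not start in this way.
EEF1B2, chr2:206159594-206159623, plus strand: gccggaagtggccccAGCCTcgaggccggg
EIF3I, chr1:32222392-32222421, plus strand: accttttccggtcttACTCAcgttgcggcc
EIF1AX, chrX:20141824-20141853, minus strand: gcaaagagtcgcggcGCCATttgctgccgc
EIF2S1, chr14:67360313-67360342, plus strand: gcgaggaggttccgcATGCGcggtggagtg
EIF4A3, chr17:80147114-80147143, minus strand: gttctcggcagcggcACAGCgaggtcggca
EIF4E, chr4:98929119-98929148, minus strand: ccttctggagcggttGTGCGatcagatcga
EIF3B, chr7:2354812-2354841, plus strand: ccccgtcgcacgcacATGGCtgggctgtag
EIF4G2, chr11:10807982-10808011, minus strand: gaggttgtcggaagcACTTCcctaacttgc
EIF4G2, chr11:10808912-10808941, minus strand: cagacacgccttagcGCCAGcagtgagtcg
Since these members were picked partly by their fold change and start, the split between the groups is a description.

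Values were TPM, a length-corrected share of each library's transcripts. Sequencing depth cannot be read from TPM, so counting intervals are not given. Each gene with a mean of at least 1 TPM was tested on log2(TPM + 1) with limma across 15042 genes, a scale on which differences of scarce genes come out too small. A gene is said to rise or fall where its Benjamini-Hochberg adjusted p was under 0.05. Nothing in the labels ties the libraries of a group to separate cultures, so p-values cover only the spread seen among these 6 libraries, which could be technical. Bulk RNA cannot tell fewer expressing cells from less RNA per cell. All 8 epithelial markers, among them EPCAM, NKX2-1 and KRT8, were present in every library, with a summed level of 5018 to 8806 TPM in 3D and 7602 to 10166 TPM in 2D, and KRT7 alone of them passed the test, lower in 3D. Of 7 fibroblast markers COL3A1 and THY1 were at 0 throughout, and the list summed to 6.99 to 12.1 TPM in 3D and 2.10 to 2.96 TPM in 2D, most of it COL1A1, which rose in 3D. The 6 endothelial markers summed to at most 4.09 TPM, and the 7 leukocyte markers, with TYROBP at 0, summed to 48.6 to 90.1 TPM in 3D and 71.1 to 100.6 TPM in 2D, most of it CD68. The part of other cell types or of keratin levels in the results below was not tested.

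Most translation factor genes were abundant and differed little between the cultures. Of the 63 genes, 56 reached the filter, and 42 of those lay in the highest of 5 equal bins of tested genes by mean TPM. Their median mean level was 140.6 TPM, against 12.8 TPM over all tested genes. The 7 below the filter were EIF4E1B, EIF4E3, EIF4EBP3, EIF5AL1, EIF2S3L, EIF1AY and the read-through gene EEF1E1-BLOC1S5, the last listed at 0 in every library. No member rose in 3D, where 10.2% of all tested genes did, and 4 fell, where 2.12% of all tested genes did: EIF3K, EIF2D, EEF1D and EEF1B2. The other 52 tested members did not pass, and 12 of the 56 had an unadjusted p under 0.05, 6 in each direction. No member differed by 2-fold or more, a size reached by 8.08% of all tested genes and by 6.15% of those in the highest abundance bin. Of the 3009 genes in that bin 265 rose and 119 fell.

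The typical member lay slightly below the typical gene. The median log2 fold change over the 56 members was -0.06, with 22 above 0 and 34 below, while the median over all tested genes was 0.12. In the highest of the 5 abundance bins, where most members lie, the median was -0.03. The members' 3D and 2D values did not overlap for 7 genes that were higher in 3D (27.3% of all tested genes) and for 11 that were lower (9.4% of all tested genes). Rescaling by median ratios moved the median of all genes to -0.03 and that of the members to -0.23, so the gap between them was -0.18 on the TPM scale and -0.20 after rescaling. With quantile normalization the gap was -0.06. The direction of 34 members was the same under every alternative setting they were in (20, or 19 for EEF1A1, which is absent when the 50 most abundant genes are left out), and 22 members changed sign under at least 1 of them.

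**Figure D1:**
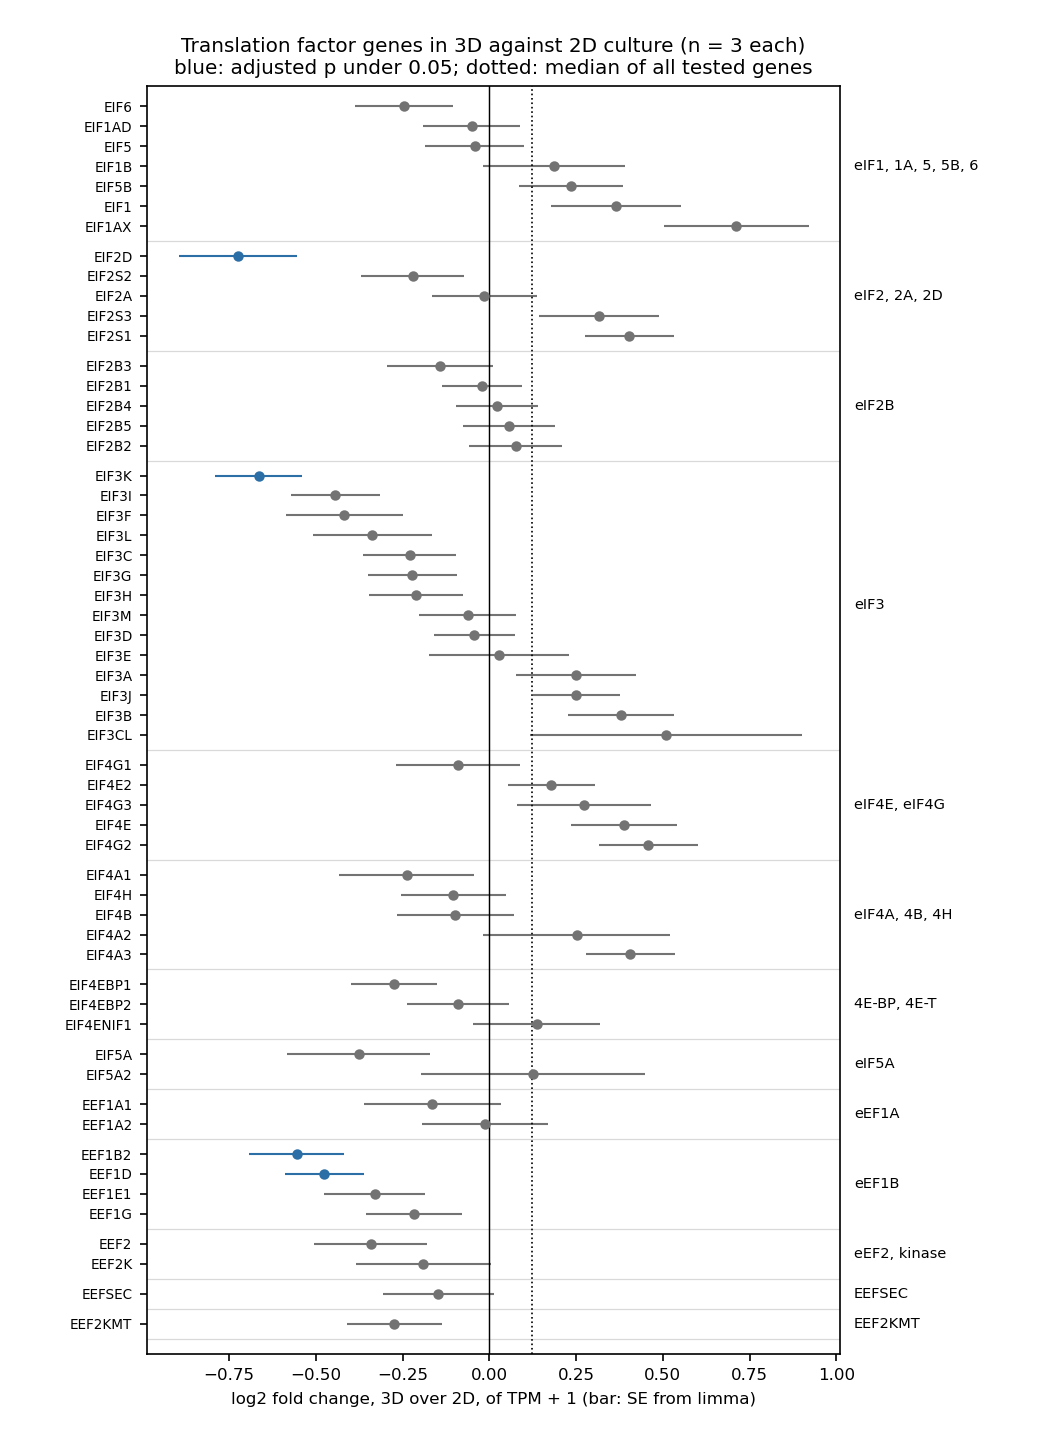
Log2 fold change of TPM + 1, 3D over 2D, for the 56 tested genes ordered by role; points are limma estimates from 3 libraries a group, bars are standard errors, blue marks an adjusted p under 0.05 and the dotted line is the median of all tested genes at 0.12. The 4 blue genes, EIF2D, EIF3K, EEF1B2 and EEF1D, lie on the left, and all 4 eEF1B genes lie below 0.

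The eEF1B exchange complex held 2 of the 4 members that fell. This complex replaces GDP with GTP on eEF1A after each delivery. EEF1B2 (chr2:206159585-206162928 in GENCODE 29), one of its catalytic subunits, measured 632, 594 and 724 TPM in 3D and 884, 970 and 1007 TPM in 2D. Every 3D library lay below every 2D library, and 3D replicate 3 was the nearest. The log2 fold change was -0.55 (SE 0.14), a level 1.47-fold lower (adjusted p = 0.0396, limma). EEF1D, the other exchange subunit, measured 329, 338 and 349 TPM in 3D and 471, 456 and 487 TPM in 2D. Its groups were far apart relative to their own spread, with means of 338.6 ± 10.1 and 471.3 ± 15.1 TPM (SD, n = 3 each). The log2 fold change was -0.48 (SE 0.11, adjusted p = 0.0364, limma). Both calls were lost with no filter on low TPM, without the trend of the variance, with the replicate number as a block (adjusted p = 0.0584 and 0.0712), and with a correction for length and GC content (-0.45 and -0.44, adjusted p = 0.0544 and 0.0543).

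The other 2 genes of the eEF1B group lay in the same direction without passing. EEF1G, the structural subunit and the most abundant of the 4, measured 2050, 2265 and 2043 TPM in 3D and 2572, 2547 and 2276 TPM in 2D, a log2 fold change of -0.22 (SE 0.14, adjusted p = 0.316, limma). Its groups did not overlap, but 3D replicate 2 and 2D replicate 3 were 0.475% apart. EEF1E1, named for its likeness to these subunits but known mainly as a scaffold of the aminoacyl-tRNA synthetase complex, also had all 3D values below all 2D values. It was expressed at 27.8 ± 1.18 TPM in 3D and 35.4 ± 5.31 TPM in 2D (SD, n = 3 each). All 4 genes kept their negative sign under each of the 20 settings.

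The factors these subunits serve did not pass the test. EEF1A1, the carrier of aminoacyl-tRNA, was the 9th most abundant gene of the whole table, at 8577, 9144 and 7627 TPM in 3D and 9887, 11198 and 7606 TPM in 2D. 2D replicate 3 was as low as the lowest of 3D, and the log2 fold change was -0.16 with a 95% interval of -0.62 to 0.29 (adjusted p = 0.598, limma). Its paralog EEF1A2, usually a muscle and neuron form, was expressed at 168 ± 22.9 TPM in 3D and 171 ± 34.5 TPM in 2D. EEF2, the translocase, measured 854, 1030 and 806 TPM in 3D and 1318, 1048 and 1045 TPM in 2D. These groups did not overlap, though the highest 3D library lay close to 2 of the 2D libraries, and the log2 fold change of -0.34 (SE 0.16) did not pass (adjusted p = 0.194, limma).

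The enzymes that act on eEF2 were scarce. EEF2K, which phosphorylates and slows eEF2, was at 6.04 ± 0.724 TPM in 3D and 7.12 ± 1.80 TPM in 2D. EEF2KMT, which methylates a lysine of eEF2, measured 7.32, 7.29 and 7.70 TPM in 3D and 10.0, 9.18 and 8.45 TPM in 2D. All its 3D values were lower, with a log2 fold change of -0.27 (SE 0.14, adjusted p = 0.213, limma). EEFSEC, the carrier of selenocysteinyl-tRNA, overlapped between the groups at 11.7 ± 1.22 and 13.1 ± 2.08 TPM, with a log2 fold change of -0.15 (adjusted p = 0.560, limma).

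eIF5A, which eases peptide bond formation at difficult sequences and carries the amino acid hypusine, was uneven among libraries. EIF5A measured 653, 607 and 772 TPM in 3D and 810, 710 and 1164 TPM in 2D. The groups overlapped, 2D replicate 3 was the highest library, and the log2 fold change was -0.38 with a 95% interval of -0.86 to 0.10 (adjusted p = 0.253, limma). Its paralog EIF5A2 was near the filter, at 1.48 ± 0.506 TPM in 3D and 1.33 ± 0.763 TPM in 2D.

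eIF3, the large scaffold that holds the small subunit and the mRNA together, had 14 tested genes, of which 1 fell and 13 did not pass. EIF3K, a small peripheral subunit (chr19:38619082-38636955 in GENCODE 29), measured 176, 149 and 170 TPM in 3D and 268, 274 and 244 TPM in 2D. Its groups were well apart: the highest 3D library was 67.96 TPM below the lowest 2D library. The log2 fold change was -0.66 (SE 0.13), a level 1.58-fold lower (adjusted p = 0.0180, limma). Of the 4 members that fell, it had the smallest adjusted p, and it kept its call with no filter, without the trend, and with the correction for length and GC content.

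The remaining eIF3 genes lay on both sides of 0. Over the 14 the fold changes ran from -0.66 to 0.51 with a median of -0.14, 9 of them negative. EIF3I, a WD-repeat subunit of the core, measured 115, 127 and 127 TPM in 3D and 160, 155 and 189 TPM in 2D. Its 3D values were all lower, yet the log2 fold change of -0.44 (SE 0.13) did not pass (adjusted p = 0.0629, limma), except after median-ratio scaling, where the adjusted p was 0.0299 (0.0299 to 0.215 over the 20 settings). EIF3F measured 117, 140 and 100 TPM in 3D and 174, 168 and 135 TPM in 2D, so that 3D replicate 2 lay above 2D replicate 3. Its log2 fold change was -0.42 (SE 0.17, adjusted p = 0.138, limma).

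EIF3B, the core subunit that anchors EIF3I, went the other way. It measured 186, 205 and 165 TPM in 3D and 145, 121 and 162 TPM in 2D, with the groups apart by 3.05 TPM between replicate 3 of each. The log2 fold change was 0.38 (SE 0.15, adjusted p = 0.140, limma). EIF3E was the most abundant eIF3 gene and did not differ beyond its spread, at 459, 446 and 430 TPM in 3D and 459, 558 and 324 TPM in 2D. Its log2 fold change was 0.03 with a 95% interval of -0.44 to 0.49, and its sign changed with scaling. EIF3CL, at 8.84 ± 3.54 TPM in 3D and 6.00 ± 2.99 TPM in 2D, is a near-identical copy of EIF3C, so how reads were divided between the 2 genes is uncertain.

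**Figure D2:**
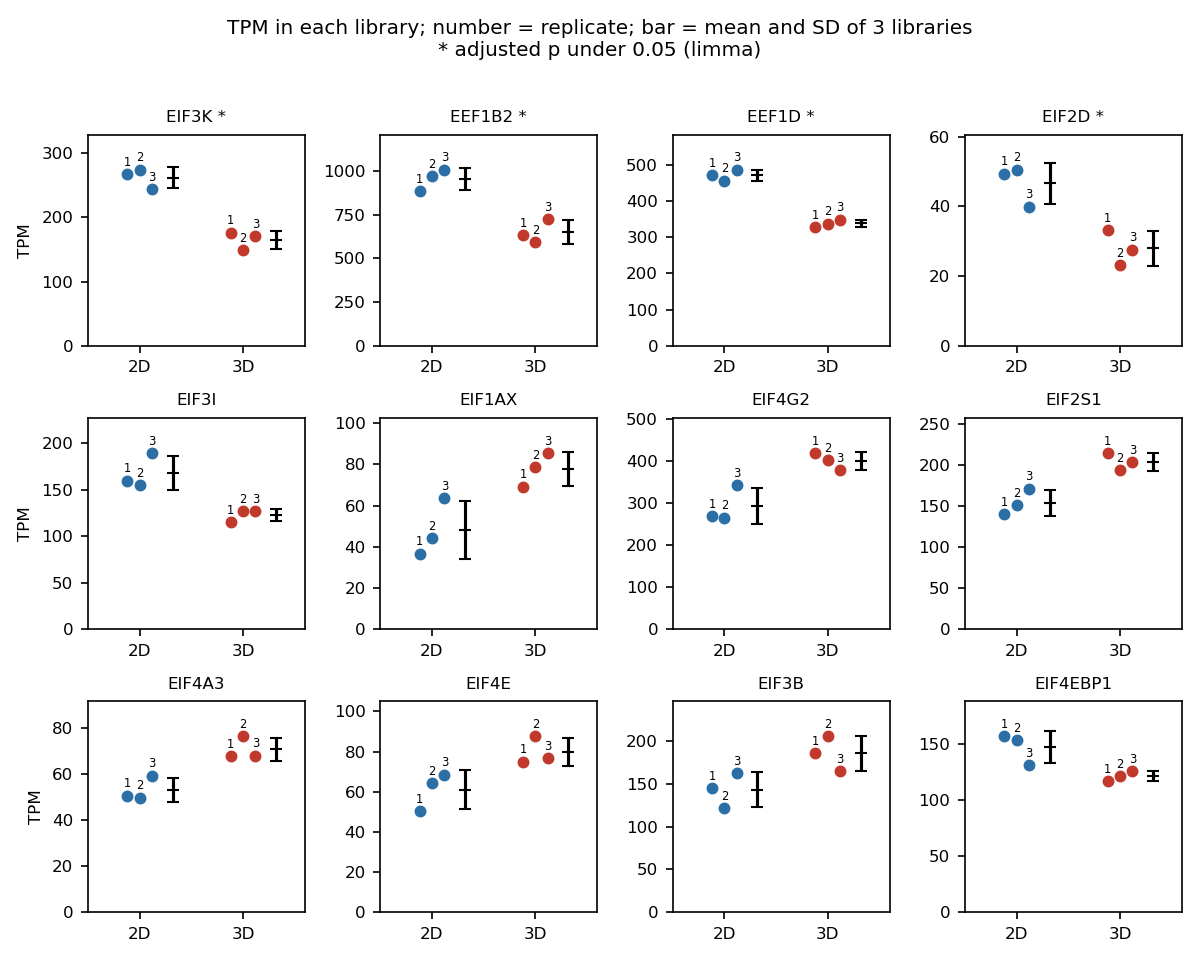
TPM of 12 members in each of the 6 libraries (blue 2D, red 3D, numbered by replicate), with the mean and SD of 3 libraries beside each group; every axis starts at 0 and stars mark an adjusted p under 0.05. The 12 are a selection in which the groups do not overlap, whereas they overlapped for 38 of the 56 tested members. Of all tested genes 36.7% did not overlap. The nearest libraries of the 2 groups are 3.05 TPM apart for EIF3B and 67.96 TPM apart for EIF3K.

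Among the carriers of tRNA, EIF2D fell while the eIF2 subunits did not pass. EIF2D (chr1:206571292-206612463 in GENCODE 29) can place tRNA on the small subunit without GTP and takes part in recycling and reinitiation. It measured 33.2, 23.0 and 27.6 TPM in 3D and 49.4, 50.5 and 39.9 TPM in 2D. All 3D libraries were lower, and 3D replicate 1 came nearest to 2D replicate 3. The log2 fold change of -0.72 (SE 0.17) was the largest decrease of any member, a level 1.65-fold lower (adjusted p = 0.0354, limma). The call was lost with no filter on low TPM, where the adjusted p was 0.0794.

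EIF2S1, the alpha subunit of eIF2 whose phosphorylation halts initiation under stress, measured 215, 194 and 203 TPM in 3D and 141, 151 and 171 TPM in 2D. Its 3D values were all higher, and the log2 fold change of 0.40 (SE 0.13) missed the threshold (adjusted p = 0.0778, limma). The beta subunit gene EIF2S2 was at 131 ± 4.62 TPM in 3D and 154 ± 25.2 TPM in 2D, and the gamma subunit gene EIF2S3 at 104 ± 21.4 and 82.3 ± 7.70 TPM. The 5 genes of eIF2B, which recharges eIF2 with GTP and is blocked by phosphorylated eIF2, all lay near 0 and none passed. Their fold changes ran from -0.14 to 0.08. EIF2B1 measured 48.8, 53.7 and 54.9 TPM in 3D and 53.5, 53.3 and 52.7 TPM in 2D, with a 95% interval of -0.29 to 0.25 around a log2 fold change of -0.02. EIF2B3 was at 34.1 ± 1.09 and 38.1 ± 6.66 TPM, with a log2 fold change of -0.14 (adjusted p = 0.552, limma).

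Of the 7 tested genes grouped under start codon selection and subunit joining, EIF1AD and EIF6 among them, none passed. EIF1AX, the X-linked gene of eIF1A, which promotes scanning together with eIF1, had the largest positive difference of any member. It measured 69.2, 78.5 and 85.5 TPM in 3D and 36.6, 44.3 and 63.7 TPM in 2D. The 3D values were all higher, but 2D replicate 3 came close to 3D replicate 1. The log2 fold change was 0.71 (SE 0.21, adjusted p = 0.0639, limma). EIF1, which guards the choice of the start codon, measured 1353, 1539 and 1057 TPM in 3D and 1081, 1118 and 851 TPM in 2D. These overlapped, with 3D replicate 3 below 2 of the 2D libraries, and the log2 fold change of 0.37 (SE 0.19) did not pass (adjusted p = 0.227, limma).

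The cap-binding and scaffold genes had 4 of 5 fold changes above 0, and none passed. EIF4G2, also called DAP5, is an eIF4G relative that lacks the eIF4E-binding site. It measured 420, 403 and 378 TPM in 3D and 270, 266 and 343 TPM in 2D, all 3D values being higher, with a log2 fold change of 0.46 (SE 0.14, adjusted p = 0.0755, limma). EIF4E, the cap-binding protein, measured 75.03, 87.57 and 76.65 TPM in 3D and 50.31, 64.31 and 68.58 TPM in 2D. Its log2 fold change was 0.39 (SE 0.15, adjusted p = 0.133, limma) and became -0.04 with the correction for length and GC content. EIF4G1, the main scaffold, overlapped at 168 ± 25.8 and 179 ± 29.8 TPM, and EIF4G3 at 32.2 ± 7.38 and 26.2 ± 3.28 TPM. Their log2 fold changes were -0.09 and 0.27 (adjusted p = 0.758 and 0.366, limma).

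The eIF4A helicase group had 5 tested genes and none passed. EIF4A3, which despite its name serves the exon junction complex rather than initiation, measured 67.8, 76.3 and 67.9 TPM in 3D and 50.6, 49.7 and 59.3 TPM in 2D. Its 3D values were all higher, with a log2 fold change of 0.41 (SE 0.13, adjusted p = 0.0785, limma). EIF4A1, the main initiation helicase, measured 1497, 1418 and 1621 TPM in 3D and 1479, 1638 and 2332 TPM in 2D. The groups overlapped and 2D replicate 3 stood above the rest, with a log2 fold change of -0.24 (adjusted p = 0.430, limma). EIF4A2 showed the reverse within 2D, with 479 and 581 TPM in replicates 1 and 2 and 284 TPM in replicate 3.

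EIF4EBP1, which blocks eIF4E when unphosphorylated, measured 117, 122 and 126 TPM in 3D and 157, 154 and 131 TPM in 2D. All 3D values were lower, the nearest by 5.32 TPM, and the log2 fold change of -0.27 (SE 0.12) did not pass (adjusted p = 0.177, limma). With the correction for length and GC content it was -0.04 (adjusted p = 0.826, limma, within 0.0523 to 0.826 over all settings). EIF4EBP2 was at 21.8 ± 1.56 and 23.4 ± 3.32 TPM and EIF4ENIF1, which carries eIF4E into the nucleus, at 8.13 ± 1.84 and 7.19 ± 0.111 TPM, both with overlapping groups.

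Fits with a library left out changed which members passed. Without 3D replicate 1, 3D replicate 2, 2D replicate 1 or 2D replicate 2 none of the 4 decreases passed, with adjusted p (limma) up to 0.0783 for EIF3K, 0.124 for EIF2D, 0.155 for EEF1D and 0.154 for EEF1B2, although each kept its sign. The log2 fold changes in those 4 fits were -0.59 to -0.71 for EIF3K, -0.60 to -0.85 for EIF2D, -0.46 to -0.50 for EEF1D and -0.49 to -0.61 for EEF1B2. Over all 20 settings the adjusted p ran from 0.0106 for EIF3K, 0.0239 for EIF2D, 0.0202 for EEF1D and 0.0117 for EEF1B2 up to those values. In those same fits the number of genes lower in 3D over the whole table was 29 to 74, in place of 319. Without 2D replicate 3, EIF1AX, EIF4G2, EIF2S1 and EIF4A3 passed as higher in 3D (adjusted p = 0.0130, 0.0251, 0.0434 and 0.0477, limma), EEF1B2 no longer passed (adjusted p = 0.0515), and 1587 of all genes were higher. Over all settings the adjusted p (limma) of those 4 ran from 0.0117 to 0.259, 0.0105 to 0.361, 0.0311 to 0.644 and 0.0340 to 0.257. Without 3D replicate 3, EIF2D did not pass (adjusted p = 0.0596, limma). Leaving out replicate 3 of both groups gave 6 members higher, the former 4 with EIF3B and EIF1, and 5 lower, the main 4 with EIF6, beside 2464 and 1356 genes of the table. 2D replicate 3 stood nearest to 3D within its group for each of EIF3K, EIF2D, EIF1AX, EIF4G2, EIF2S1, EIF4A3, EIF4E, EIF3B and EIF4EBP1, and farthest from it for EEF1B2, EEF1D and EIF3I.

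Summed over all 63 genes the factors took 2.09% to 2.64% of the table. The sums were 22210, 23504 and 20874 TPM in 3D and 24881, 26391 and 22854 TPM in 2D, with means of 22196 ± 1315 and 24708 ± 1775 TPM (SD, n = 3 each). The groups overlapped, since 3D replicate 2 lay above 2D replicate 3. EEF1A1 alone made up 33.3% to 42.4% of each sum. Without it the sums were 13633, 14360 and 13247 TPM in 3D and 14994, 15193 and 15248 TPM in 2D, with every 3D library lower. Transcripts of the mitochondrial genome, which share the same total, took 12.3% to 19.4% in 3D and 14.4% to 17.5% in 2D, and with them left out the 3D mean of the 63 genes was below the 2D mean by a like amount (difference -2521 TPM, against -2512.5 TPM with them).

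Ratios within a library do not depend on a factor applied to the whole library, though they can move with transcript length, and 17 pairs of paralogs or partners were compared in this way. The groups did not overlap for 5 of the 17 pairs, and some pairs share a gene. Single genes did not overlap between the groups for 36.7% of all tested genes. For a single pair of 3 against 3 libraries the exact two-sided permutation test cannot go below 0.1, the value each of the 5 reached, and the adjusted value over the 17 pairs was 0.34, so none passed. EIF2D per EIF2S1 was 0.155, 0.119 and 0.136 in 3D and 0.351, 0.335 and 0.233 in 2D, a log2 difference of -1.15. EIF4EBP1 per EIF4E was 1.56, 1.39 and 1.65 in 3D and 3.12, 2.40 and 1.92 in 2D, a log2 difference of -0.67. This pair joins a short and a long transcript, of 1020 and 11523 nucleotides, and with the correction for length and GC content the log2 fold changes of both genes were -0.04.

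The other 3 separated pairs were higher in 3D. EIF4G2 per EIF4G1, the scaffold without the eIF4E site against the one with it, was 2.303, 2.196 and 2.736 in 3D and 1.460, 1.812 and 1.666 in 2D, a log2 difference of 0.55. EIF4G3 per EIF4G1 differed by 0.37 and EIF4A3 per EIF4A1 by 0.65 on the log2 scale. In each the lowest 3D library lay above the highest 2D library. EIF4A2 per EIF4A1 and EEF1A2 per EEF1A1, 2 pairs of paralogs with different tissue patterns, overlapped between the cultures.

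**Figure D3:**
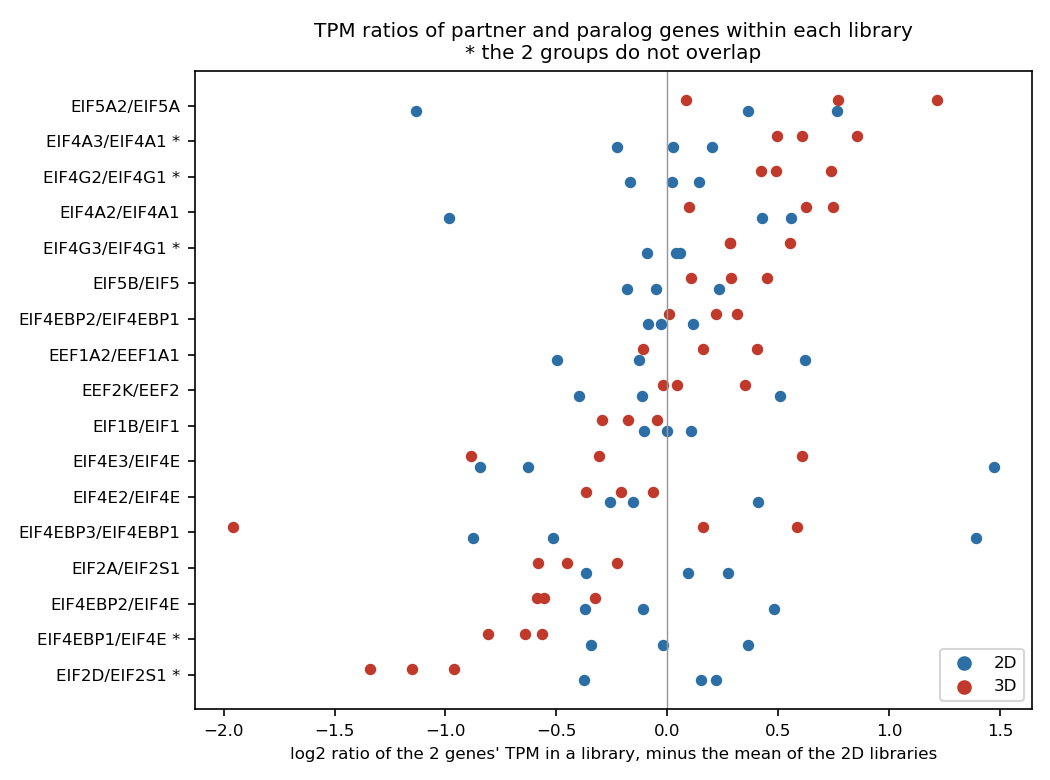
Log2 ratio of TPM between 2 genes of the same library for 17 pairs, shown relative to the mean of the 2D libraries (blue 2D, red 3D, 3 libraries each); stars mark the 5 pairs whose groups do not overlap. The 3D points lie to the left for EIF2D/EIF2S1 and EIF4EBP1/EIF4E and to the right for EIF4G2/EIF4G1, EIF4G3/EIF4G1 and EIF4A3/EIF4A1.

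Fold change followed transcript length among the members and in the whole table. Transcript length was that of the principal GENCODE 29 transcript, known for 81.4% of tested genes. The 56 members share the same 6 libraries and are not replicates. Across them the log2 of length and the log2 fold change correlated with Pearson r = 0.46 (Spearman rho = 0.46). Across the 14 eIF3 genes r was 0.62 (rho = 0.57), and across 12241 tested genes it was 0.19 (rho = 0.28). All genes with a length were put in 5 equal bins. From the shortest to the longest bin the median log2 fold change went from -0.11 through 0.05, 0.14 and 0.21 to 0.30. The members in those bins numbered 15, 13, 10, 9 and 9, with medians of -0.25, -0.04, 0.00, 0.08 and 0.13. All 4 members that fell lay in the 2 shortest bins, EIF3K with 864 nucleotides and EEF1B2 with 1098 in the first, EIF2D with 2005 and EEF1D with 2207 in the second. After correcting each library for length and GC content, a setting chosen after seeing the data, EIF3K was at -0.47 (adjusted p = 0.0394, limma) and EIF2D at -0.74 (adjusted p = 0.0299, limma). EEF1B2 and EEF1D were at -0.45 and -0.44 and no longer passed, while EIF3H passed as lower in 3D (adjusted p = 0.0394, limma, 0.0394 to 0.602 over all settings). EIF1AX went from 0.71 to 0.36, EIF4G2 from 0.46 to 0.18 and EIF2S1 from 0.40 to 0.086, while EIF4A3 was at 0.43.

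**Figure D4:**
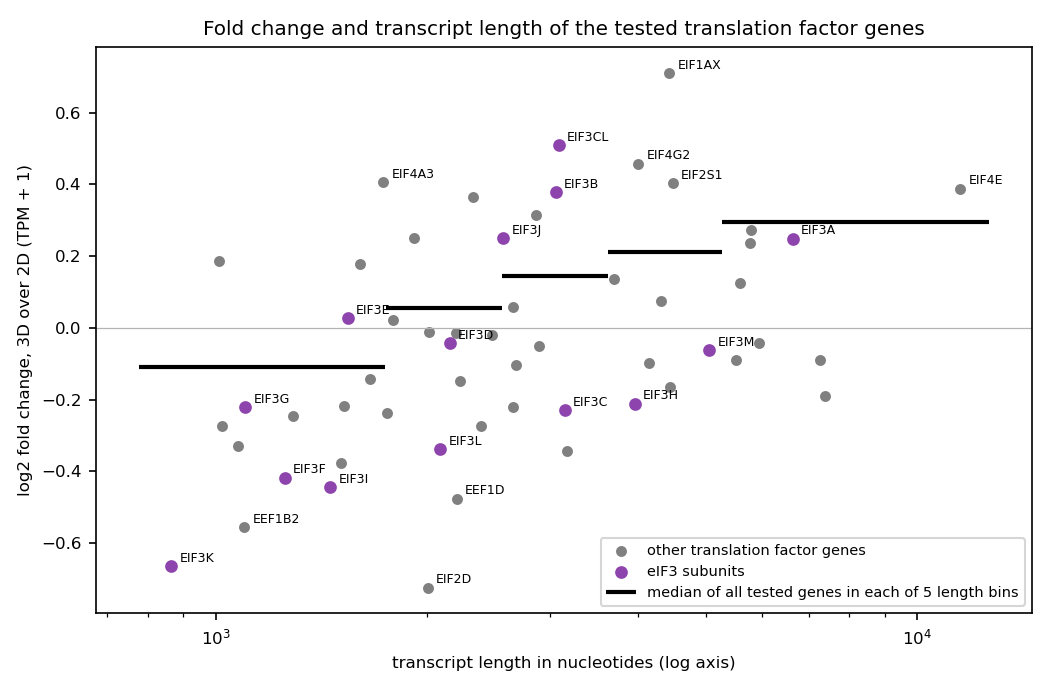
Log2 fold change of TPM + 1, 3D over 2D, against transcript length in nucleotides (log axis) for the 56 tested members, eIF3 subunits in purple; black lines give the median of all tested genes in each of 5 equal length bins, cut at the members' range. The lines climb from -0.11 to 0.30, and EIF3K, EEF1B2, EIF2D and EEF1D lie below the line of their bin.

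The pyrimidine start was frequent among the members. It was searched as a C at the annotated start followed by 4 bases that are each C or T, on the gene's strand only. A gene was counted if any of its entries had such a start. This held for 12 of the 51 matched members (23.5%), against 7.31% of 9470 tested protein-coding genes with an entry. The 51 include members below the filter, whereas the 9470 do not. Among tested members with an entry, 12 had such a start and 33 did not. Counted by entry and not by gene, the share was 4.07% of 35116 promoter entries. The 12 were EEF1A1, EEF1B2, EEF2, EIF2A, EIF2D, EIF2S3, EIF3D, EIF3F, EIF3K, EIF3M, EIF4A2 and EIF4B, EEF1B2 by 1 of its 2 entries. Their median log2 fold change was -0.13, with 10 below 0 and 3 that fell. Among all 692 tested protein-coding genes with such a start 28 fell and 59 rose, and among 8778 without it 156 fell and 1019 rose. The 33 tested members without it had a median of 0.02, with 16 below 0 and none that passed. Over all tested protein-coding genes the medians were 0.00 with such a start and 0.15 without. Genes with such a start were also more abundant. Among tested members the median mean level was 252.5 TPM with it and 61.9 TPM without it. Over all tested protein-coding genes it was 26.4 and 17.5 TPM. The part of abundance in these fold changes was not tested. EEF1D, the remaining member that fell, was not matched to an entry. These letters describe an annotated start and not the start used in these cells.

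Other genes of translation were read in 6 lists of 79 genes. A rise was found for 9 of 78 tested genes and a fall for 0, and 69 did not pass, with a median log2 fold change of 0.15, beside 10.2% of all tested genes that rose and 2.12% that fell. The list of eIF2 kinases, phosphatase subunits and effectors held 3 of the 9 that rose. PPP1R15A, the inducible subunit that guides the phosphatase to eIF2 alpha, measured 289, 230 and 214 TPM in 3D and 37.8, 25.6 and 22.7 TPM in 2D (log2 fold change 3.07, SE 0.21, adjusted p = 0.000381, limma). PPP1R15B, its constitutive counterpart, was at 84.1 ± 22.8 and 18.6 ± 1.88 TPM, and the eIF2 kinase EIF2AK3 (PERK) at 32.4 ± 7.77 and 14.4 ± 1.97 TPM. Their log2 fold changes were 2.08 and 1.10 (adjusted p = 0.00214 and 0.0166, limma). The 9 others of this list, ATF4 among them at 419 ± 29.5 and 370 ± 52.5 TPM, did not pass.

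In termination and recycling 1 of 9 genes rose: GSPT2, a paralog of the release factor eRF3, measured 4.07, 3.94 and 3.47 TPM in 3D and 0.48, 0.64 and 0.69 TPM in 2D (log2 fold change 1.59, adjusted p = 0.00423, limma). Of 11 genes of hypusine, polyamine and diphthamide synthesis 2 rose and 0 fell. The 2 were ODC1 and AMD1, of polyamine synthesis, with log2 fold changes of 1.12 and 0.80 (adjusted p = 0.0125 and 0.0194, limma). SRM, also of polyamine synthesis, was at 29.55 ± 3.33 TPM in 3D and 39.56 ± 2.25 TPM in 2D. Its 3D values were all lower, but it did not pass (log2 fold change -0.41, adjusted p = 0.0801, limma). The enzyme DHPS, which places hypusine on eIF5A, overlapped at 51.3 ± 5.23 and 61.3 ± 16.0 TPM. Among 16 genes of mTORC1 and of the S6 and eIF4E kinases 1 rose, RPS6KA3, a kinase of the ERK pathway, by 0.95 (adjusted p = 0.00579, limma). In the list of further factors 2 of 15 rose, the helicase DDX3X by 0.86 and GTPBP2, a GTPase linked to ribosome rescue, by 0.87 on the log2 scale (adjusted p = 0.0182 and 0.0186, limma). None of 15 tested poly(A) tail and cap-side genes passed, and PABPC1, the most abundant, was at 1287 ± 237 and 1562 ± 88.0 TPM (log2 fold change -0.29, adjusted p = 0.267, limma). PPP1R15A, PPP1R15B and RPS6KA3 passed under all 20 settings. GSPT2 passed under each setting it was in, but the filter at 5 TPM left it out. The other 5 lost their call under at least 1 setting. These were EIF2AK3, AMD1 and DDX3X without 3D replicate 1 (adjusted p = 0.0732, 0.0884 and 0.0824, limma), and GTPBP2 and ODC1 without 2D replicate 2 (adjusted p = 0.0754 and 0.0564, limma).

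**Figure D5:**
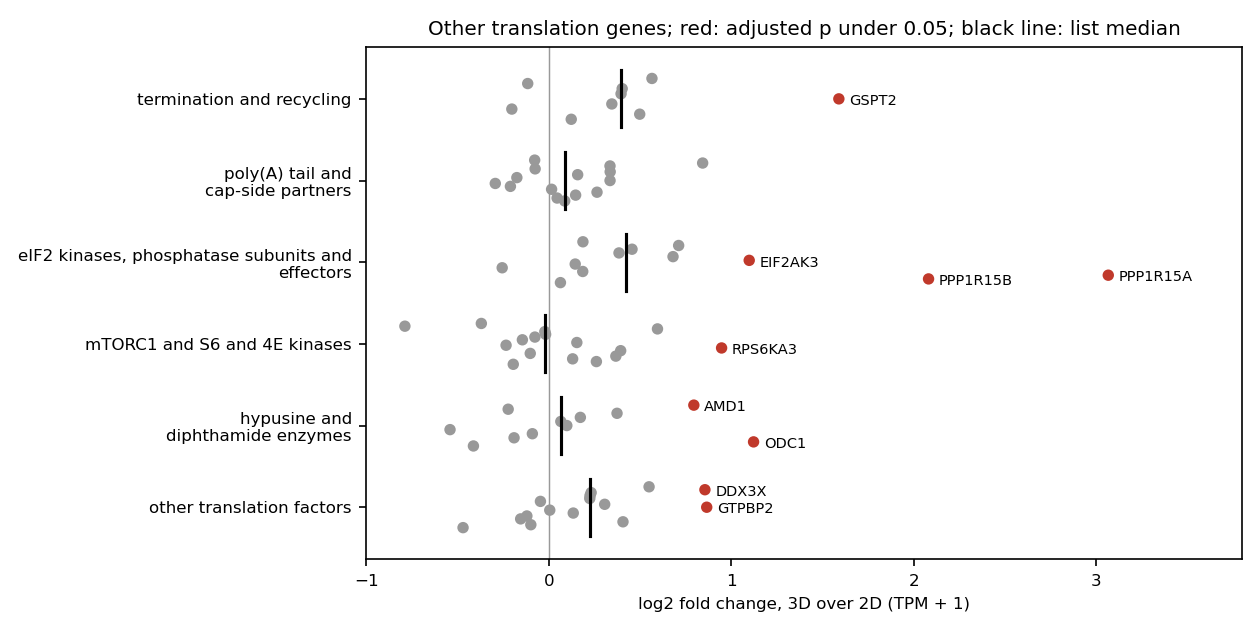
Log2 fold change of TPM + 1, 3D over 2D, of 78 tested genes in 6 translation lists outside the EIF and EEF families; each point is a gene, red marks an adjusted p under 0.05 and the black line is the list's median. The 9 red points lie to the right of 0, PPP1R15A farthest at 3.07.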

How the data were processed

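Poly(A) RNA of 6 HCC827 libraries, 3 from 3D and 3 from 2D culture, was sequenced as single-end reads of 75 nt from a directional kit, using RNA with an integrity number above 9, per the labels' protocols. The values are TPM for each gene in each library, in 1 table that the authors deposited. Tools named in the submitters' processing notes, without role or order, are RSEM 1.3.1, STAR 2.7.0d and cutadapt 2.3, with the build hg38. The strand setting and annotation were not given in the sources used here. Overlapping and near-identical genes are therefore uncertain. TPM keeps no depth and is a share, so a rise of some genes lowers the rest.

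Groups and replicate numbers came from the sample titles. Genes averaging 1 TPM or more over the libraries were fitted on log2(TPM + 1) with limma 3.58.1 in R 4.3.3 (lmFit, eBayes with a trend, no covariate, two-sided, Benjamini-Hochberg over all 15042 genes, threshold 0.05), and the members' rows were read from that fit. The fit was tested on simulated data. Within-library ratios of 17 pairs used an exact permutation test. Named with full values were called members, the most abundant and the most different member of each role, and genes of separated pairs (23 genes). EIF3B, EIF3F and EIF3I were added after their values were seen, for an unadjusted p under 0.05. EIF3H, EIF6, levels of other members, markers, ATF4, DHPS and SRM were given outside the rule. Of other translation lists up to 3 called genes were named, or the most abundant. The members and lists were chosen with earlier results of these data known. Gene positions and principal transcripts came from GENCODE 29, in which all 63 members were found, and start sites from RefSeq on GRCh38.p14. Alternatives were pseudocounts of 0.1 and 5, no filter or a filter at 5 TPM, 5 other scalings or gene sets, 2 other variance settings, a replicate block, libraries left out, and, added after seeing the data, a correction for length and GC content. Figures used matplotlib 3.10.9.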

Additional observations from a re-analysis of the deposited data

How the results depend on the processing

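Counts of members that passed changed with the setting. Higher and lower members, 0 and 4 in the report (1536 and 319 of all genes), numbered 0 and 1 with no filter on low TPM (729 and 86 of all genes). With nuclear protein-coding genes only they numbered 1 and 4 (1615 and 371 of 12533 tested genes). Without the variance trend the members numbered 0 and 2 (1429 and 260 of all genes). Without both libraries numbered 3 they numbered 6 and 5 (2464 and 1356 of all genes). Over all genes the counts were 931 and 662 with median-ratio scaling, 869 and 576 with quantile normalization, and 980 and 594 with the correction for length and GC content. Of the genes that passed in either direction, the share that was higher was then 58.4%, 60.1% and 62.3%, against 82.8% in the report. The members' median was -0.23 with median-ratio scaling and -0.15 with the length and GC correction. With 1 library left out, 0 to 4 members were higher and 0 to 3 lower, and 367 to 1607 and 29 to 563 of all genes passed as higher and lower. The ratio pairs that did not overlap then numbered 6 to 9, in place of 5, with 9 without 2D replicate 3 and 8 without 3D replicate 3. That number could only stay or grow, since a pair whose groups do not overlap stays so when a library is left out. Its growth is therefore no result about the libraries.

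Among members named with values, EIF3E changed sign to -0.15 with median-ratio scaling, -0.016 with quantile normalization, -0.16 without replicate 3 of both groups, and -0.039 with the length and GC correction. That correction also turned EIF4E to -0.036 and EIF4G3 to -0.053, and EIF4G1 was at 0.15 without replicate 3 of both groups. With 1 library left out, EIF3E ran from -0.19 to 0.20, EIF4G1 from -0.23 to 0.044, and EIF2B1 from -0.053 to 0.030. The cause was not tested.

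The labels do not say what the replicate numbers share across groups, and the values do not settle whether they pair the samples. Deviations of same-numbered 3D and 2D libraries from their group means correlated across all tested genes with r = 0.10, 0.04 and 0.19, while 3D replicate 1 correlated best with 2D replicate 2 (0.13) and replicate 3 of each group best with the other. With the replicate block 1 member was higher, EIF1AX, and 2 were lower, EEF1B2 and EEF1D having lost their calls, and 1479 and 395 of all genes passed. TPM gives no depth, so no limit from counting can be set for the members that did not pass.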

Other observations

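Rows for processed copies of EEF1A1 were not among the members, being pseudogenes. Those averaging 1 TPM or more were among all tested genes. The table holds 39 rows named EEF1A1P with a number, of which 27 were above 0 in some library. They summed to 345, 371 and 333 TPM in 3D and 406, 382 and 370 TPM in 2D, and EEF1A1P5 alone held 321 to 358 TPM in 3D and 360 to 390 TPM in 2D. How reads were divided between EEF1A1 and these copies is not given in the sources used here.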
